A study of Mus musculus with 9 samples.

Results

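The Notch genes described here are 10 mouse genes: the receptors Notch1, Notch2, Notch3 and Notch4, the ligands Dll1, Dll4, Jag1 and Jag2, and the target genes Hey1 and Hey2. They were taken by symbol, and each symbol matched 1 Ensembl ID, so they are 10 of the 53465 gene rows in the count tables. All 10 passed the filter on low counts, which left 13825 genes for testing. The RNA came from mouse hearts of the NOD-SCID strain, which lacks functional B and T lymphocytes. Sham-operated hearts gave 3 libraries, hearts with coronary artery ligation gave 3, and ligated hearts implanted with cells labelled FOXO3-GE-MPCs gave 3. These groups are called sham, ligation and cells below. The tissue is labelled as the border zone of the infarct in every group, sham included. The labels used here give no age, sex, time after surgery, pooling of animals or injection into ligated hearts without cells. For cell replicates 2 and 3 the source field names other FOXO members, while title and treatment name FOXO3, and the latter were followed. Nothing in the labels says that replicates are separate animals, so p-values measure the spread between these libraries, which may be technical.

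Notch receptors are single-pass membrane proteins that are activated by ligands on a neighbouring cell. Ligand binding leads to cleavage by ADAM metalloproteases and then by gamma-secretase, and the released intracellular domain enters the nucleus and joins the DNA-binding protein RBPJ to switch on genes of the Hes and Hey families. In the heart, Notch1, Notch4, Dll4 and Jag1 are known from endothelial cells, Notch3 from smooth muscle cells and pericytes, and Notch2 also from myeloid cells. Dll4 with Hey1 and Hey2 is known for arterial specification during development, and Hey2 also for ventricular muscle.

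Gene counts ran from 4549268 to 7515052 per library, and 3 counts, taken as the smallest detectable level, equalled 0.375 to 0.639 CPM (counts divided by the TMM-scaled library size in units of 1e+06). No replicate pair was the same library: the chi-square of their counts averaged 1.97 to 3.98 per gene. Mitochondrially encoded genes held 19.1% to 19.9% of gene counts in sham, 12.5% to 13.9% in ligation and 14.3% in each cell library. Header names of the count columns share a stem in sham replicates 1 and 2, and again in ligation replicates 2 and 3, so results were also computed with those libraries summed. Marker lists of cell types were summed per library. The 8 cardiomyocyte markers were Myh6, Tnnt2, Tnni3, Actc1, Myl2, Myl3, Ryr2 and Pln. They summed to 51954 to 53758 CPM in sham, 38186 to 40129 in ligation and 37815 to 38706 in cells. Of these 8 markers 6 passed as lower and 1 as higher in ligation than in sham. The 8 fibroblast markers had sums of 2300 to 2355 CPM in sham, 4280 to 4376 in ligation and 3993 to 4100 in cells, and the 4 mesothelial markers 30.0 to 41.5, 179 to 217 and 144 to 153 CPM. After ligation 6 of 8 fibroblast markers passed as higher and 1 as lower, and 4 of 4 mesothelial markers as higher. In cells against ligation 2 of 8 and 2 of 4 passed as lower. The 4 Schwann and neural markers summed to 16.3 to 21.9 CPM in sham, 24.6 to 27.7 in ligation and 53.0 to 62.7 in cells, but 1 of 4 passed as higher in cells than in ligation and 2 of 4 in cells than in sham. The 7 lymphocyte markers summed to between 0.567 and 3.20 CPM.

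The 14 endothelial markers summed to 3687 to 3880 CPM in sham, 2596 to 2798 in ligation and 2762 to 2841 in cells, and 13 of 14 passed as lower in ligation than in sham. In cells against ligation 3 of 14 passed as higher and 1 as lower. Sums over the 10 mural markers, which belong to smooth muscle and pericytes, were 1928 to 1973, 1402 to 1431 and 1405 to 1441 CPM in sham, ligation and cells. Of 9 tested 6 passed as lower and 1 as higher after ligation, and 2 as lower and 1 as higher in cells against ligation. The 8 macrophage markers summed to 600 to 660, 1149 to 1162 and 470 to 481 CPM, with 8 of 8 passing as higher in ligation than in sham and 8 of 8 as lower in cells than in ligation. For 4 atrial cardiomyocyte markers the sums were 405 to 449, 281 to 319 and 975 to 1022 CPM. Their members did not all move together: after ligation 1 of 4 (Bmp10) passed as higher and 3 (Myl7, Myl4 and Sln) as lower, in cells against ligation the same 3 passed as higher and Bmp10 as lower, and in cells against sham 4 of 4 passed as higher. No endothelial, mural or macrophage marker was at 0 in any library. In bulk tissue, fewer cells of a type and less RNA per cell cannot be told apart. The part of these lists in the changes below was not tested.

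**Figure D1:**
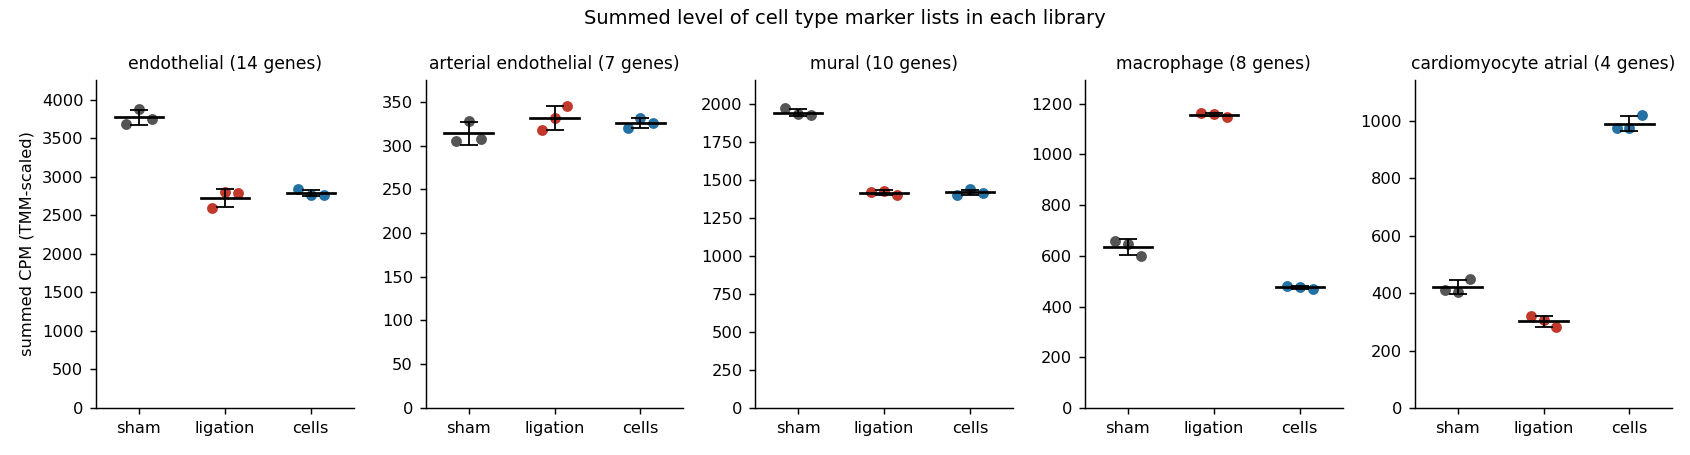
Summed TMM-scaled CPM of 5 marker lists (y axis, from 0) in sham, ligation and cells (x axis). Each point is 1 library, and bars give the mean ± SD of 3 libraries. Endothelial and mural sums are highest in sham, macrophage sums in ligation and atrial sums in cells.

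Levels of different genes were compared per exonic length, as TPM (counts per exonic kilobase, scaled to the same sum in every library) and only within a group. That length joins all annotated exons of a gene and can exceed any single transcript, which lowers the value. It was 14232 bases for Notch1, 10782 for Notch2, 8089 for Notch3 and 8061 for Notch4, so the order depends on the annotation. In sham the order was Jag2 at 33.1 ± 2.65 TPM (SD, n = 3), Notch4 at 32.3 ± 2.31, Dll4 at 29.2 ± 0.542, Hey1 at 23.4 ± 2.63, Notch3 at 19.9 ± 1.36, Jag1 at 13.5 ± 0.934, Notch1 at 10.2 ± 0.577, Dll1 at 4.87 ± 0.542, Notch2 at 4.73 ± 0.632 and Hey2 at 3.41 ± 0.653. Jag2 and Notch4 overlapped in their ranges, as did Dll1 and Notch2, and the other neighbours in that order did not. Notch4 was thus the receptor with the highest level per length in sham, and it made up 47.3% to 48.5% of the summed TPM of the 4 receptors there, 41.7% to 44.2% in ligation and 39.4% to 41.1% in cells. Notch3 made up 29.3% to 29.8%, 34.4% to 36.6% and 34.2% to 37.5%. In ligation the order began with Notch4 at 35.4 ± 3.18 TPM, Dll4 at 31.1 ± 3.40, Notch3 at 29.3 ± 3.68 and Jag2 at 29.3 ± 1.35, each overlapping the next. In cells it began with Jag2 at 28.4 ± 2.29 TPM, Dll4 at 28.1 ± 3.49, Notch4 at 25.7 ± 0.278 and Hey1 at 25.4 ± 0.242, again each overlapping the next.

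**Figure D2:**
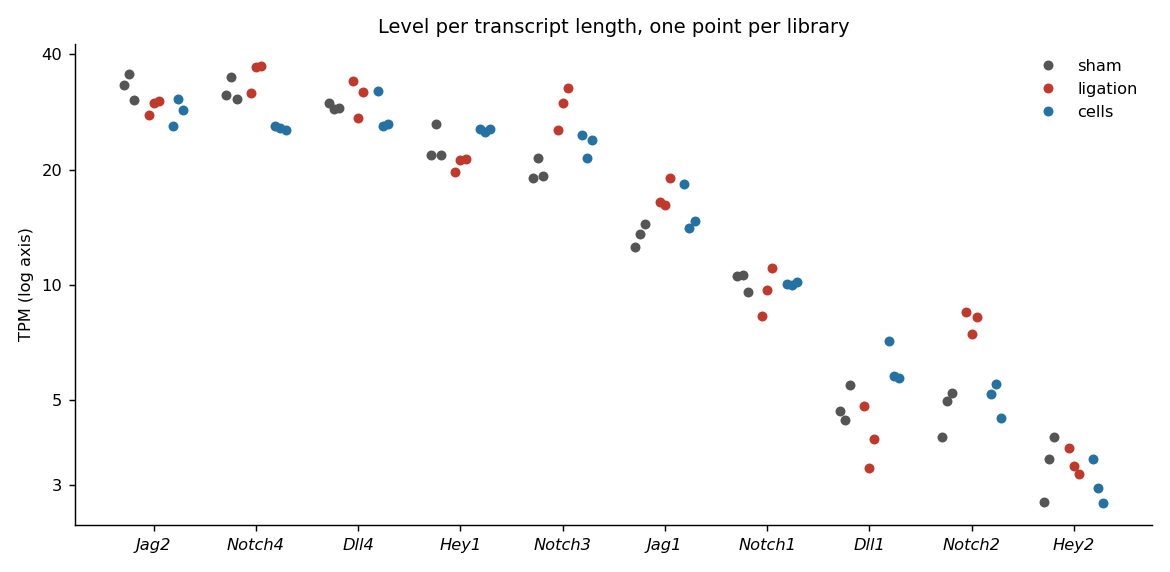
Level per exonic length of the 10 genes (TPM, log axis) with 1 point per library, ordered by the sham mean. Jag2, Notch4 and Dll4 stand highest in sham, and Dll1, Notch2 and Hey2 lowest, with a mean of 3.41 TPM for Hey2.

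After ligation 8 of the 10 genes passed an adjusted p of 0.05 (edgeR quasi-likelihood test, Benjamini-Hochberg over all 13825 genes), against 38.2% of all genes tested. Notch1, Notch4, Dll1, Dll4, Jag2 and Hey1 fell, and Notch2 and Notch3 rose. In all genes tested 20.1% passed as higher and 18.0% as lower. The median log2 fold change was -0.33 over the 10 genes and 0.0080 over all genes. CPM ranges of ligation and sham did not overlap for 7 of the 10, against 47.6% of all genes. With cells against ligation 5 of the 10 passed, against 9.87% of all genes: Dll1 and Hey1 rose (4.19% of all genes) and Notch2, Notch3 and Notch4 fell (5.69%). The median there was -0.089 over the 10 genes and 0.0020 over all, and ranges did not overlap for 5 of the 10, against 27.2% of all genes. With cells against sham 4 of the 10 passed, a share close to the 40.9% of all genes: Notch1, Notch4, Dll4 and Jag2 were lower. Of all genes 21.0% passed there as higher and 20.0% as lower. The median was -0.28 over the 10 genes and -0.0073 over all, and ranges did not overlap for 5 of the 10, against 49.8%. The comparisons share libraries (ligation or sham), so a fall after ligation and a rise with cells are not independent of each other, nor are the reverse.

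With library totals alone the median of all genes moved by 0.19 on the log2 scale in ligation against sham, by -0.030 in cells against ligation and by 0.16 in cells against sham. The balance of calls over all genes moved with it, from 2783 higher and 2494 lower to 4966 and 1346 after ligation, from 579 and 786 to 436 and 927 in cells against ligation, and from 2899 and 2762 to 4612 and 1698 in cells against sham. Among the 10 genes the calls were then 2 higher and 4 lower, 2 and 3, and 0 and 2. Higher and lower below are meant against the TMM scale.

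**Figure D3:**
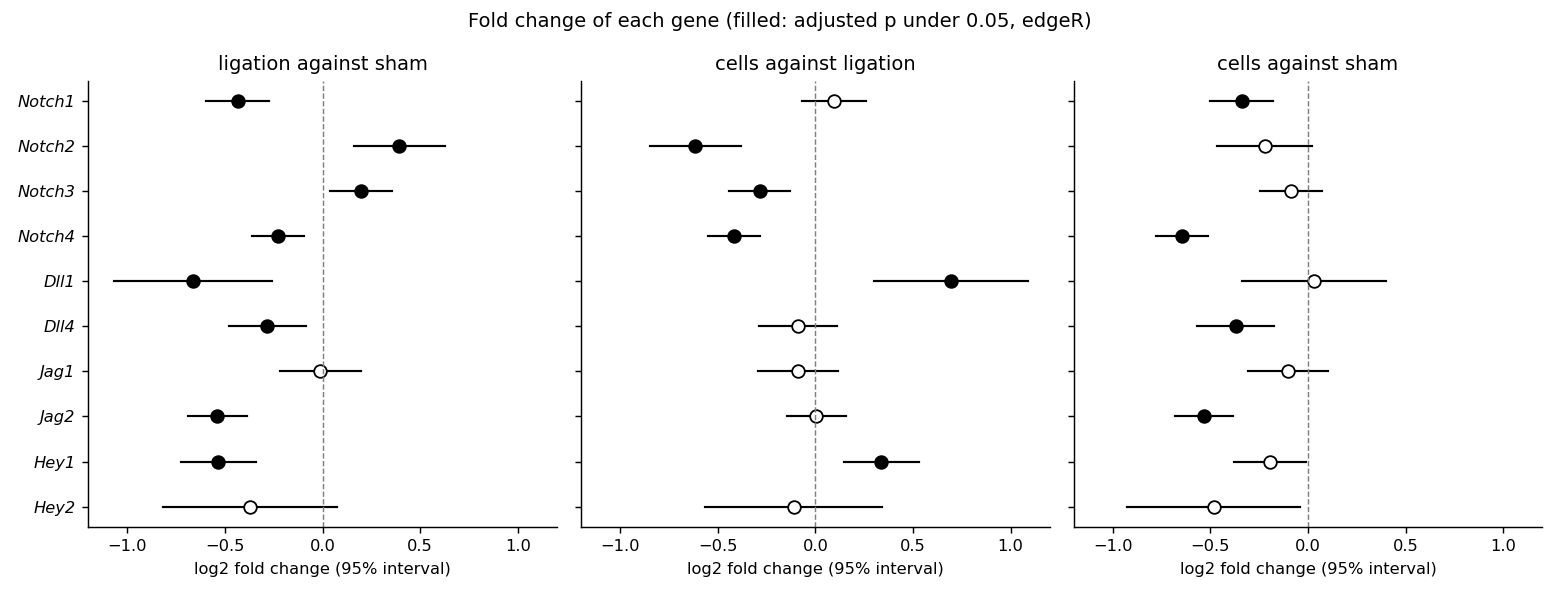
Log2 fold change of the 10 genes (x axis) in 3 comparisons, with 95% intervals. Filled points passed an adjusted p of 0.05 with edgeR, which were 8 genes in ligation against sham, 5 in cells against ligation and 4 in cells against sham.

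Notch1 (ENSMUSG00000026923, GRCm38 chr2:26457903-26516663, minus strand) is the receptor most studied in vascular and endocardial development. It was at 76.9, 75.6 and 69.2 CPM in sham replicates 1 to 3, at 48.2, 54.1 and 60.3 CPM in ligation and at 57.9, 58.3 and 58.9 CPM in cells. All ligation and cell libraries lay below all sham libraries, and the ligation and cell ranges overlapped. Notch1 fell by 0.43 on the log2 scale after ligation (SE 0.0778, edgeR adjusted p 0.000143), and by 0.25 with library totals alone (edgeR adjusted p 0.0180). In cells against ligation the difference was 0.095 with a 95% interval from -0.068 to 0.26 (edgeR adjusted p 0.525). In cells against sham it fell by 0.34 (edgeR adjusted p 0.00125), which did not pass with library totals alone (-0.18, edgeR adjusted p 0.0709). As a share of the summed endothelial markers Notch1 was 1.85% to 2.09% in sham and 1.85% to 2.16% in ligation, with overlapping ranges (log2 difference 0.014, exact two-sided permutation p = 0.9, adjusted 0.9 over 18 such comparisons). With 3 libraries against 3 no such test can go below 0.1. The antisense genes 0610009E02Rik and Gm13568 overlap 10.4% of its exonic length and had at most 7 and 1 counts per library.

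Notch4 (ENSMUSG00000015468, chr17:34564268-34588503, plus strand), a receptor known mainly from endothelium, was the gene of the 10 that passed as lower both after ligation and with cells against ligation. Its CPM was 130, 141 and 125 in sham, 104, 118 and 115 in ligation and 84.8, 84.9 and 83.4 in cells. The 3 groups did not overlap, and the cell libraries were close to one another. Notch4 fell by 0.23 after ligation (SE 0.0637, edgeR adjusted p 0.00734), by 0.42 in cells against ligation (SE 0.0649, edgeR adjusted p 0.000175) and by 0.64 in cells against sham (SE 0.0646, edgeR adjusted p 8.29e-08). The first of these did not pass with library totals alone (-0.040, edgeR adjusted p 0.660), while the others passed in all 19 alternatives. Relative to the endothelial markers Notch4 was 3.34% to 3.63% of their summed CPM in sham, 4.02% to 4.20% in ligation and 2.99% to 3.07% in cells. Those ranges did not overlap, with an exact two-sided permutation p of 0.1 for each pair of groups, the smallest that 3 against 3 libraries allow, and 0.257 after adjustment over 18 comparisons. The summed endothelial markers of ligation and cells overlapped, as given above, but 3 of the 14 passed as higher and 1 as lower in cells.

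The annotated start of Notch4 is shown because, of the 10 genes, Notch4 had the smallest adjusted p in cells against sham. The window covers chr17:34564045-34564304 (RefSeq, GRCm38.p6, plus strand), which is 250 bases before the start and 10 bases from it, and capitals mark TGACTCA, the letters bound by AP-1 factors. That motif was chosen after the sequence was seen.
Notch4: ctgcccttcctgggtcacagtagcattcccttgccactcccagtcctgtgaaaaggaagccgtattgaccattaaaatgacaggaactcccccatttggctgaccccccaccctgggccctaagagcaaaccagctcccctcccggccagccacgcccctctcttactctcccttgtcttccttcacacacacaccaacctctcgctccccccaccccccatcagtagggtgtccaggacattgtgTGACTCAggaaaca
TGACTCA, or TGAGTCA on the other strand, stood in 5.20% of all 32851 promoter windows of 300 bases, and the match is a description of letters and not a site.

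Notch2 (ENSMUSG00000027878, chr3:98013527-98150361, plus strand) moved the other way from Notch1 after ligation. It stood at 22.2, 26.9 and 28.6 CPM in sham, 37.3, 31.5 and 34.0 CPM in ligation and 22.7, 24.3 and 19.7 CPM in cells. All ligation libraries were above all others, and sham and cells overlapped. The rise after ligation was 0.39 (SE 0.112, edgeR adjusted p 0.00843) and the fall in cells against ligation was -0.62 (SE 0.112, edgeR adjusted p 0.000845). Without sham replicate 1 the rise was 0.30 and did not pass (edgeR adjusted p 0.0593). The macrophage, fibroblast and mesothelial marker sums given above were likewise highest in ligation without overlap, and their part in the Notch2 values was not tested. In cells against sham the difference was -0.22 (95% interval -0.47 to 0.021, edgeR adjusted p 0.137), and it passed without sham replicate 1 (-0.32, edgeR adjusted p 0.0483). Notch2 shares 4.28% of its 31-base words with other transcripts.

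Notch3 (ENSMUSG00000038146, chr17:32120820-32166852, minus strand), the receptor of smooth muscle and pericytes, was at 78.8, 87.0 and 79.2 CPM in sham, 84.0, 94.6 and 101 CPM in ligation and 81.0, 70.9 and 78.9 CPM in cells. Sham and ligation overlapped, and all cell libraries were below all ligation libraries. It rose by 0.20 after ligation (SE 0.0759, edgeR adjusted p 0.0455), a call just inside the threshold. The rise was 0.39 with library totals alone (edgeR adjusted p 0.000478) and 0.12 without ligation replicate 3. The call was lost in 12 of 19 alternatives. Leaving out 1 library ended it for sham replicate 1 (edgeR adjusted p 0.138), sham replicate 3 (0.130), ligation replicate 2 (0.104), ligation replicate 3 (0.308), cell replicate 1 (0.0522) and cell replicate 3 (0.0558). It was also lost with RLE size factors (edgeR adjusted p 0.0538), in a fit of these groups alone (0.0732), without mitochondrially encoded genes (0.0647), with the replicate number as a block (0.0647) and with libraries summed by header stem (0.170), as well as with DESeq2 (adjusted p 0.0858). In cells against ligation Notch3 fell by 0.28 (SE 0.0753, edgeR adjusted p 0.0179), and this was lost without ligation replicate 2 (0.0642), ligation replicate 3 (0.131) or cell replicate 2 (0.0940), and with summed libraries (0.0547). The mural marker sums were highest in sham and overlapped between ligation and cells, where 2 of 9 tested markers passed as lower and 1 as higher. The macrophage, fibroblast and mesothelial marker sums were highest in ligation. The part of these lists in the Notch3 values was not tested.

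The ratio of Notch3 to Notch1 within a library, which does not depend on scaling, was one of 4 ratios compared, all chosen with earlier results of these data known. Counts of Notch3 over Notch1 gave a log2 ratio of 0.14 ± 0.0937 (mean ± SD of 3 libraries) for sham, 0.79 ± 0.0330 for ligation and 0.40 ± 0.103 for the cell group. No 2 groups overlapped. Each pair had an exact two-sided permutation p of 0.1, the smallest possible, and 0.2 after adjustment over 12 ratio comparisons.

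**Figure D4:**
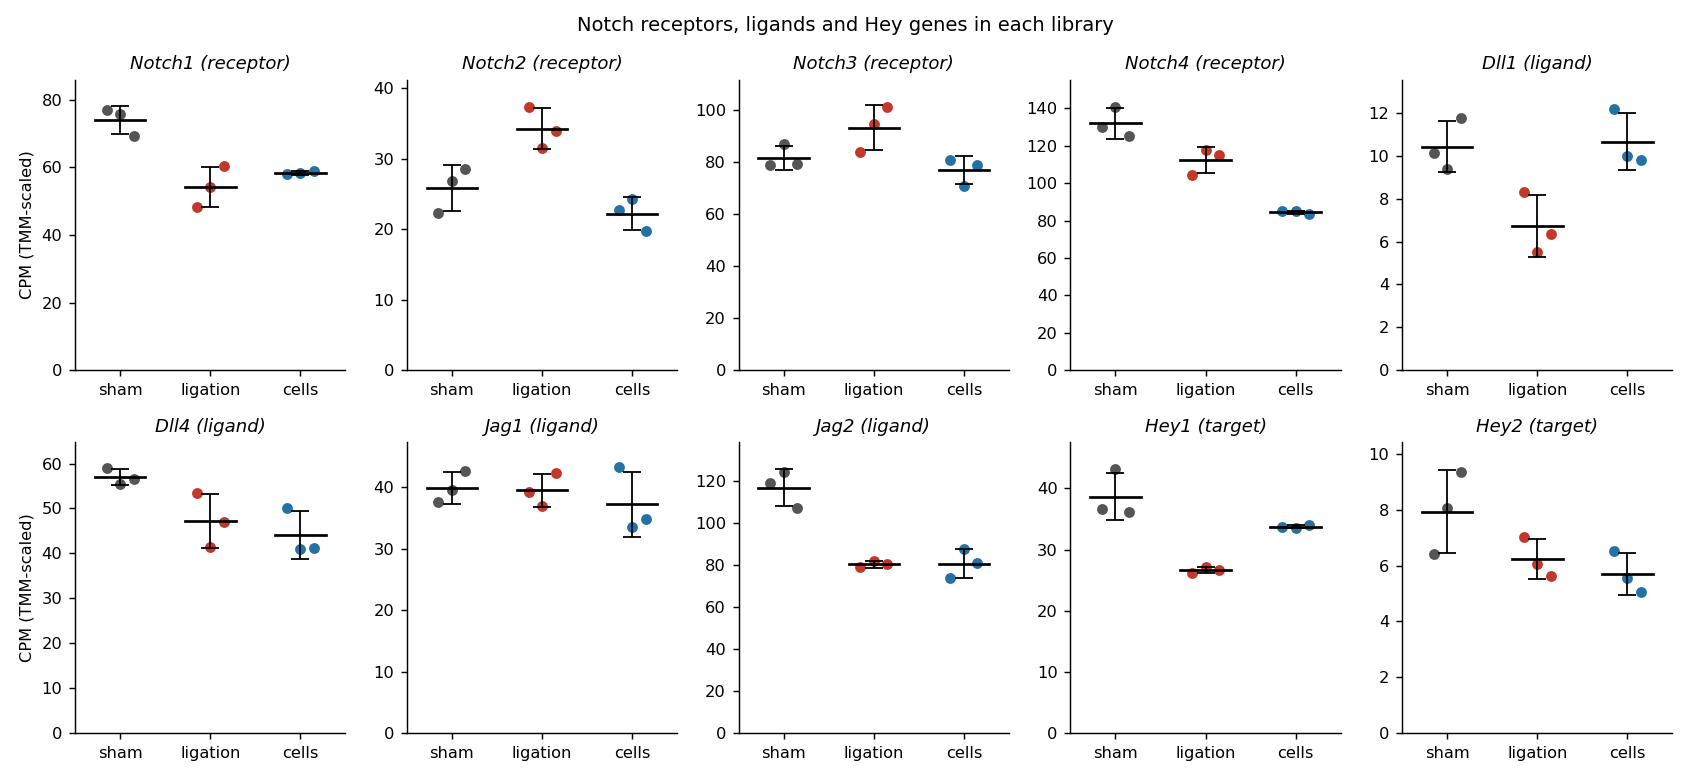
TMM-scaled CPM (y axis, from 0) of the 10 genes in sham, ligation and cells (x axis). Points are single libraries and bars the mean ± SD of 3. Jag2 and Hey1 in ligation lie below every sham library, and Notch4 in cells, at 83.4 to 84.9 CPM, lies below every other library.

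Jag2 (ENSMUSG00000002799, chr12:112907819-112929776, minus strand), a membrane ligand of the Jagged type, had the smallest adjusted p of the 10 after ligation. It measured 119, 124 and 107 CPM in sham, 78.8, 81.9 and 80.3 CPM in ligation and 73.6, 87.4 and 81.1 CPM in cells. Every ligation and cell library was below every sham library. Jag2 fell by 0.54 after ligation (SE 0.0721, edgeR adjusted p 4.62e-06) and by 0.53 in cells against sham (SE 0.0715, edgeR adjusted p 4.52e-06), and both calls held in all 19 alternatives. The difference after ligation was -0.35 with library totals alone (edgeR adjusted p 0.000501). Cells against ligation gave 0.0058 (95% interval -0.15 to 0.16, edgeR adjusted p 0.975). As a share of summed endothelial markers Jag2 differed by -0.071 on the log2 scale between ligation and sham (exact two-sided permutation p = 0.4, adjusted 0.6), with overlapping ranges.

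Jag1 (ENSMUSG00000027276, chr2:137081456-137116644, minus strand), the other Jagged ligand, was at 37.6, 39.5 and 42.7 CPM in sham, 39.2, 37.0 and 42.4 CPM in ligation and 43.3, 33.6 and 34.9 CPM in cells, and all groups overlapped. Its differences were -0.013 after ligation (95% interval -0.22 to 0.19, edgeR adjusted p 0.937), -0.090 in cells against ligation (-0.30 to 0.11, edgeR adjusted p 0.650) and -0.10 in cells against sham (-0.31 to 0.10, edgeR adjusted p 0.432). With library totals alone the first and last turned positive, at 0.18 and 0.056, and neither passed. Relative to endothelial markers Jag1 was 1.02% to 1.14% of their summed CPM in sham and 1.32% to 1.52% in ligation, without overlap (exact two-sided permutation p = 0.1, the smallest possible, adjusted 0.257). The cell libraries, at 1.21% to 1.52%, also lay above sham (the same p). The ratio of Jag2 to Jag1 counts was 2.51 to 3.17 in sham, 1.89 to 2.21 in ligation and 1.70 to 2.60 in cells. Sham and ligation did not overlap in that ratio (exact two-sided permutation p = 0.1, adjusted 0.2).

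Dll4 (ENSMUSG00000027314, chr2:119325784-119335962, plus strand), the Delta ligand of arterial and sprouting endothelium, stood at 58.9, 55.5 and 56.7 CPM in sham, 53.5, 41.4 and 46.9 CPM in ligation and 50.2, 40.9 and 41.2 CPM in cells. Sham lay above all ligation and cell libraries, and ligation and cells overlapped. It fell by 0.28 after ligation (SE 0.0943, edgeR adjusted p 0.0225) and by 0.37 in cells against sham (SE 0.0938, edgeR adjusted p 0.00335). The first call was lost with library totals alone (-0.094, edgeR adjusted p 0.440), with summed libraries (0.0644) and without sham replicate 1 (0.0697), sham replicate 3 (0.0509) or ligation replicate 2 (0.155). The second was lost with library totals alone (-0.21, edgeR adjusted p 0.0702). As a share of summed endothelial markers Dll4 was 1.43% to 1.60% in sham, 1.48% to 2.06% in ligation and 1.48% to 1.77% in cells. All groups overlapped in that share, and its log2 differences from sham were 0.19 for ligation and 0.058 for cells (exact two-sided permutation p = 0.3 and 0.7, adjusted 0.6 and 0.787). The ratio of Jag1 to Dll4 counts was 0.637 to 0.754 in sham, 0.733 to 0.904 in ligation and 0.820 to 0.862 in cells. Sham and cells did not overlap in that ratio (exact two-sided permutation p = 0.1, the smallest possible, adjusted 0.2), and sham and ligation did (p = 0.2, adjusted 0.3). The antisense gene Gm14207 overlaps 5.56% of the Dll4 exonic length and had 12 to 31 counts per library. The arterial endothelial markers, 7 genes, summed to 306 to 329 CPM in sham, 318 to 345 in ligation and 320 to 332 in cells. After ligation 3 of them passed as higher (Gja4, Gja5 and Unc5b) and 2 as lower (Efnb2 and Sema3g).

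Dll1 (ENSMUSG00000014773, chr17:15367354-15376872, minus strand), a Delta ligand, was counted with 38 to 86 reads per library and so is the least precise of the ligands. Its CPM was 10.1, 9.39 and 11.7 in sham, 8.31, 5.50 and 6.38 in ligation and 12.2, 9.99 and 9.80 in cells. All ligation libraries lay below all others, and sham and cells overlapped. Dll1 fell by 0.66 after ligation (SE 0.193, edgeR adjusted p 0.00964), which was lost without sham replicate 3 (0.0536) or ligation replicate 2 (0.0581). It rose by 0.69 in cells against ligation (SE 0.188, edgeR adjusted p 0.0211), which was lost without ligation replicate 2 (0.118), ligation replicate 3 (0.0852) or cell replicate 1 (0.114) and with summed libraries (0.0558). Cells against sham gave 0.030 (95% interval -0.34 to 0.40, edgeR adjusted p 0.909). An antisense gene, A930024N18Rik, overlaps 20.6% of the Dll1 exonic length and had 0 to 5 counts per library. The strand setting of the counting is not given in the sources used here, so reads of the pair cannot be told apart where they overlap. Reads over such overlaps may also have been left out as ambiguous, here and for Notch1 and Dll4.

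Hey1 (ENSMUSG00000040289, chr3:8663359-8667256, minus strand) encodes a transcriptional repressor that is switched on by Notch in endothelium. It was at 36.7, 43.2 and 36.2 CPM in sham, 26.2, 27.2 and 26.6 CPM in ligation and 33.8, 33.6 and 34.0 CPM in cells. The 3 groups did not overlap, and replicates were close in ligation and in cells. Hey1 fell by 0.53 after ligation (SE 0.0922, edgeR adjusted p 9.70e-05), a call that held in all 19 alternatives, at -0.35 with library totals alone. It rose by 0.34 in cells against ligation (SE 0.0919, edgeR adjusted p 0.0211). That rise was lost without ligation replicate 1 (0.0594), ligation replicate 2 (0.0582), ligation replicate 3 (0.0751), cell replicate 1 (0.0571) or cell replicate 3 (0.0642), and with DESeq2 (0.0682), its size staying between 0.31 and 0.35 in all 19 alternatives. In cells against sham the difference was -0.20 (95% interval -0.38 to -0.011, edgeR adjusted p 0.0836). It was -0.037 with library totals alone and -0.11 without sham replicate 2. As a share of summed endothelial markers Hey1 was 0.965% to 1.11% in sham, 0.952% to 1.01% in ligation and 1.19% to 1.23% in cells. In that share the cell libraries lay above both other groups (exact two-sided permutation p = 0.1 for each, the smallest possible, adjusted 0.257). The atrial and the Schwann and neural marker sums were likewise higher in cells than in either other group, with 3 of 4 and 1 of 4 markers passing as higher than in ligation and 1 atrial marker as lower, and their part was not tested.

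Hey2 (ENSMUSG00000019789, chr10:30832359-30842801, minus strand), a relative of Hey1 known from arteries and ventricular muscle, had 33 to 59 counts per library. The sums of the 8 cardiomyocyte markers given above were highest in sham, and their part in the Hey2 values was not tested. It was at 6.41, 8.07 and 9.37 CPM in sham, 7.03, 6.08 and 5.63 CPM in ligation and 6.52, 5.55 and 5.04 CPM in cells. The groups overlapped in every pair. Differences were -0.37 after ligation (95% interval -0.81 to 0.073, edgeR adjusted p 0.185), -0.11 in cells against ligation (-0.57 to 0.34, edgeR adjusted p 0.816) and -0.48 in cells against sham (-0.92 to -0.040, edgeR adjusted p 0.0756). The last passed without sham replicate 1 (-0.61, edgeR adjusted p 0.0416). The ratio of Hey1 to Hey2 counts was 3.86 to 5.72 in sham, 3.73 to 4.73 in ligation and 5.17 to 6.74 in cells. Ligation and cells did not overlap in it (exact two-sided permutation p = 0.1, adjusted 0.2).

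Promoter windows of 300 bases (250 before the annotated start and 50 from it, RefSeq, GRCm38.p6) were matched for 9 of the 10 genes, as 10 windows, and were searched on both strands. Hey1 was not matched and so was not searched. The motif CGTGGGAA, with TTCCCACG on the other strand, contains the TGGGAA core that RBPJ binds, and it was found in the window of Hey2 and in no other window of the 9 genes. The Hey2 window held it at bases 44 to 51 and 246 to 253, counted from 1 with the start at base 251. Of all 32851 windows 0.734% held at least 1 match and 4 windows held more than 1. The core TGGGAA alone stood in 25.6% of all windows. The Hey2 sequence, chr10:30842774-30843033 on the minus strand, is shown with the matches in capitals because it is the one in which the letters of the pathway's own DNA-binding protein occur.
Hey2: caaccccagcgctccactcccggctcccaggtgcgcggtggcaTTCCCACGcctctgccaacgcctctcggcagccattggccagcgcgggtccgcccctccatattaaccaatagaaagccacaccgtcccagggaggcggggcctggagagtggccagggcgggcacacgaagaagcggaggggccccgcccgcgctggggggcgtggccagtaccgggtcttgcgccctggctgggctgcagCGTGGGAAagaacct
A match says only that the letters are in the window, and Hey2 passed in none of the 3 comparisons.

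The rest of the pathway was read from 53 further genes in 8 roles, of which 47 were tested. After ligation 13 of the 47 passed, 8 higher and 5 lower, against 38.2% of all genes. With cells against ligation 4 passed, 2 in each direction, against 9.87%, and with cells against sham 14 passed, 8 higher and 6 lower, against 40.9%. The medians over the 47 were -0.025, 0.0011 and 0.039. The further ligands Dll3, Dlk1, Dlk2 and Dner and the targets Hes5 and Hes7 were too low to be tested, with at most 7 counts in any library. Library totals alone gave 20 genes in place of 13 after ligation, 18 of them higher, and 20 in place of 14 in cells against sham, 16 of them higher.

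Of the genes that modify receptors, Lfng, a Fringe glycosyltransferase that adds sugar to Notch and alters its response to ligands, changed in both directions. It was at 16.4, 18.8 and 14.9 CPM in sham, 30.5, 28.5 and 29.1 CPM in ligation and 16.7, 19.4 and 16.0 CPM in cells. All ligation libraries were above all others. Lfng rose by 0.81 after ligation (SE 0.119, edgeR adjusted p 1.44e-05) and fell by 0.75 in cells against ligation (SE 0.115, edgeR adjusted p 0.000148), and both calls held in all 19 alternatives. Cells against sham gave 0.060 (95% interval -0.20 to 0.32, edgeR adjusted p 0.733). As for Notch2, the macrophage, fibroblast and mesothelial marker sums were highest in ligation too, and their part was not tested.

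Among receptor cleavage genes 1 of 10 passed after ligation, against 38.2% of all genes. It was the metalloprotease Adam10, which makes the first cut in Notch after ligand binding. Adam10 rose by 0.32 after ligation (edgeR adjusted p 0.000779) and was 0.31 higher in cells than in sham (edgeR adjusted p 0.000921), or 0.47 with library totals alone. Of the genes for ligand uptake, Neurl1a, a ubiquitin ligase, rose by 0.82 after ligation at a low level of 2.54 to 7.88 CPM (edgeR adjusted p 0.0395). That call was lost in 7 of 19 alternatives, among them those without sham replicate 1 (0.0966), sham replicate 3 (0.159), ligation replicate 1 (0.137) or ligation replicate 3 (0.0860). Its relative Neurl1b differed by -0.63 in cells against sham (edgeR adjusted p 0.0104). Poglut1, an O-glucosyltransferase that modifies Notch, was 0.31 higher in cells than in sham (edgeR adjusted p 0.0225), a call lost without sham replicate 3 (0.0792) or cell replicate 2 (0.0950) and with DESeq2 (0.0811). With library totals alone it was 0.47.

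Rbpj, the DNA-binding partner of the Notch intracellular domain, was at 33.6, 31.3 and 33.0 CPM in sham, 18.5, 27.2 and 25.8 CPM in ligation and 22.7, 24.3 and 20.5 CPM in cells. The ligation and cell libraries were all below sham. It fell by 0.43 after ligation (SE 0.119, edgeR adjusted p 0.00717), which did not pass with library totals alone (-0.24, edgeR adjusted p 0.118), and by 0.54 in cells against sham (SE 0.119, edgeR adjusted p 0.00110). In cells against ligation the difference was -0.11 (edgeR adjusted p 0.666). Rbpj shares 11.4% of its 31-base words with other transcripts, and how reads of such words were counted is not given in the sources used here. The acetyltransferase Kat2b, a coactivator that shares 14.6% of its words, rose by 0.50 after ligation and was 0.63 higher in cells than in sham (edgeR adjusted p 3.63e-06 and 1.55e-07). The deacetylase Hdac1, a corepressor that shares 39.97% of its words, fell by 0.49 and was lower by -0.68 in cells against sham (edgeR adjusted p 0.00485 and 0.000270). The first of these did not pass with library totals alone (-0.30, edgeR adjusted p 0.0625).

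Of the inhibitors and turnover genes, Numbl, a Numb-type adaptor, rose by 0.58 after ligation (edgeR adjusted p 0.00701), which was lost without sham replicate 3 (0.0539). Fbxw7, the ubiquitin ligase that marks the Notch intracellular domain for degradation, fell by 0.47 (edgeR adjusted p 0.000260), and by 0.28 with library totals alone (edgeR adjusted p 0.0120). Dtx3, of the Deltex family, fell by 0.31 in cells against ligation (edgeR adjusted p 0.00832), which was lost without cell replicate 3 (0.0532), and was lower in cells against sham, by -0.42 (edgeR adjusted p 0.000107) or -0.26 with library totals alone. Dtx2, of the same family, was 0.39 higher in cells than in sham (edgeR adjusted p 0.0301), with overlapping ranges. That call was lost without sham replicate 2 (0.0776), sham replicate 3 (0.0886), cell replicate 2 (0.0524) or cell replicate 3 (log2 difference 0.24, 0.196), with summed libraries (0.0578) and with DESeq2 (0.0693).

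The other tested targets were Heyl, Hes1 and Nrarp, a feedback inhibitor. Heyl, a Hey relative known from smooth muscle, was at 41.5, 50.4 and 40.5 CPM in sham, 26.0, 32.4 and 29.1 CPM in ligation and 40.3, 33.2 and 44.5 CPM in cells. It fell by 0.59 after ligation (SE 0.115, edgeR adjusted p 0.000389) and rose by 0.42 in cells against ligation (SE 0.115, edgeR adjusted p 0.0227), all ligation libraries being below all others. The rise was lost without ligation replicate 1 (0.0857), ligation replicate 3 (0.0802), cell replicate 1 (0.0695) or cell replicate 3 (0.134). In cells against sham Heyl differed by -0.17 (edgeR adjusted p 0.239).

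Hes1 was at 31.9, 36.6 and 38.9 CPM in sham, 39.6, 32.7 and 31.0 CPM in ligation and 44.8, 45.8 and 39.9 CPM in cells, so that sham and ligation overlapped and all cell libraries were above all others. After ligation it differed by -0.075 (edgeR adjusted p 0.609), and by 0.11 with library totals alone. Hes1 rose by 0.35 in cells against ligation (SE 0.0999, edgeR adjusted p 0.0267), which was lost without ligation replicate 2 (0.110), ligation replicate 3 (0.159), cell replicate 1 (0.0881) or cell replicate 2 (0.0852) and with summed libraries (0.0690). The atrial and the Schwann and neural marker sums were also highest in cells, with the same tallies, and their part was not tested. Hes1 was 0.28 higher in cells than in sham (edgeR adjusted p 0.0304), or 0.44 with library totals alone. The call was lost without sham replicate 1 (0.141), sham replicate 2 (0.0571), cell replicate 1 (0.0846) or cell replicate 2 (0.0880), with summed libraries (0.0738) and with DESeq2 (0.0652). Nrarp, at 2.38 to 7.20 CPM over all libraries, passed in no comparison (edgeR adjusted p 0.353, 0.258 and 0.630). An antisense gene, Gm38287, covers 79.4% of the Nrarp exonic length and had 0 counts in every library. Reads over both genes may have been left out as ambiguous, so that 0 cannot show whether Nrarp lost reads. Of the 3 targets tested in this list 2 passed as higher in cells than in ligation, against 4.19% of all genes, and both calls were lost without single libraries, as given.

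**Figure D5:**
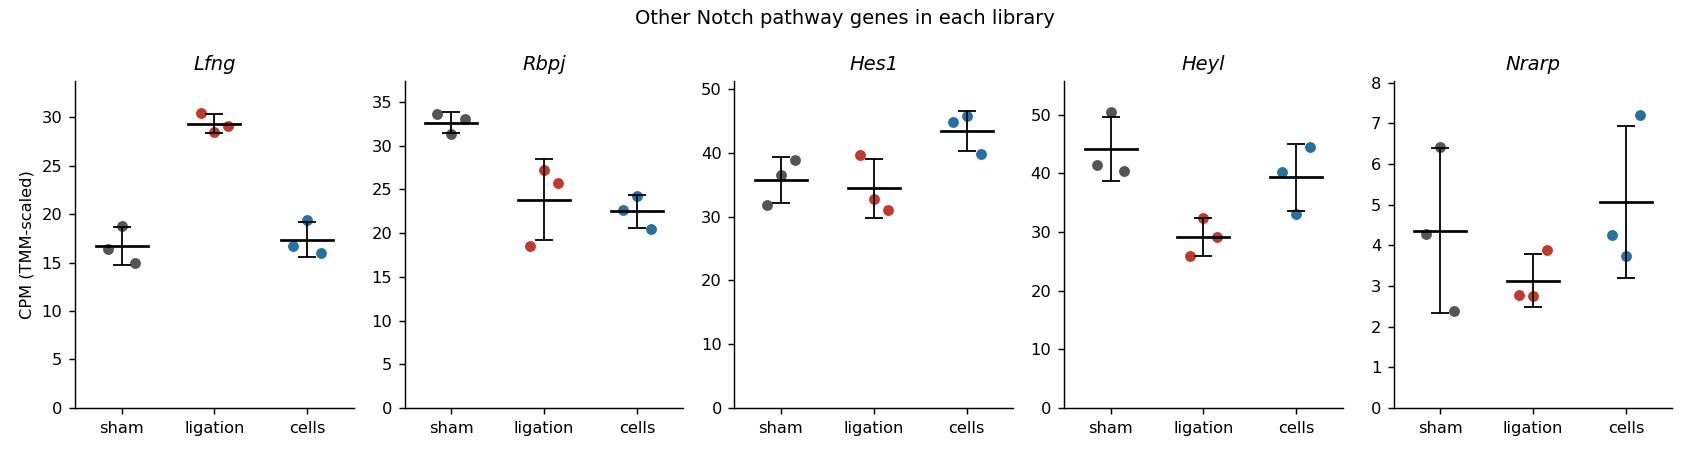
TMM-scaled CPM (y axis, from 0) of Lfng, Rbpj, Hes1, Heyl and Nrarp in sham, ligation and cells (x axis). Points are single libraries and bars the mean ± SD of 3. Lfng is highest and Heyl lowest in ligation, and Hes1 in cells, at 39.9 to 45.8 CPM, lies above every other library.

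Genes whose pattern was most like each of the 10 were taken among 13794 genes with a symbol and a mean of at least 1 CPM, by the root mean square difference of log2 CPM, centred per gene, over the 9 libraries. Nearest to Notch1 were Myh11, the myosin heavy chain of smooth muscle, at a difference of 0.0455, and Gypc. Inf2 and Slc43a3 came nearest to Notch4, at 0.0578 and 0.0663. Notch3 was nearest to Mxd4 and Peli2, at 0.0470 and 0.0501, and Notch2 to Tbc1d14 and Rnf144b, at 0.0952 and 0.103. For Jag2 they were Rps10, a ribosomal protein gene, and Gcdh, an enzyme of lysine breakdown, at 0.0557 and 0.0568. Hey1 was nearest to Aqp1, a water channel of microvascular endothelium, at 0.0568, and 2610008E11Rik. The genes nearest to Dll4 were Zfp948 and Tial1, to Jag1 Gatd1 and Haus7, and to Hey2 Aoc2 and Fahd2a, at 0.0635 to 0.0936. Dll1, with the fewest counts of the ligands, had its nearest genes farther away, Meox2 at 0.149 and Magohb at 0.150. These distances describe 9 libraries that share their groups. The SD of log2 CPM over these libraries ran from 0.129 for Jag1 to 0.369 for Dll1. A gene that varies little lies near others that vary little, so distances are not comparable between the 10 genes.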

How the data were processed

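TRIzol extraction and NEBNext Ultra RNA library preparation are given per the labels' protocols. The authors deposited 1 table of unnormalized counts for each library, on mm10 per the submitters' processing notes. Aligner, counter, strand setting and annotation release are not given in the sources used here. The deposited tables end in lines for reads in no gene (4.14% to 4.91% of reads) and ambiguous reads (8.09% to 8.72%), which were left out.

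Symbols, coordinates and exonic lengths came from GENCODE M21 (GRCm38). Counts were fitted in R 4.3.3 with edgeR 4.0.16 (filterByExpr, TMM, 1 mean per group over 9 libraries, 6 residual degrees of freedom, quasi-likelihood test, two-sided), adjusting p-values over 13825 genes. SE is the log2 fold change over the square root of F. Other settings tried were scaling, low-count filters, limma-voom (limma 3.58.1), DESeq2 1.42.0, groups fitted alone, mitochondrial genes removed, a replicate block, each library left out and, chosen after seeing the data, libraries summed by header stem. The members and gene lists were chosen with earlier results of these data known. Named besides the 10 genes are Rbpj, Hes1, Heyl, Nrarp, the up to 4 largest passing changes per direction and comparison among 53 pathway genes, and the 2 nearest genes by pattern. Lfng is also given where it did not pass. Adam10 after ligation and the arterial, atrial and other cardiomyocyte markers were named after their values were seen. The fit was also run on counts simulated from its own dispersions, with far fewer genes changed than passed here. No result above rests on that run. Figures used matplotlib 3.10.9.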

Additional observations from a re-analysis of the deposited data

Results flagged for a closer look

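The share of reads that fell outside annotated genes, which no comparison used, was 4.75% ± 0.155 (SD, n = 3) for ligation. For sham it was 4.21% ± 0.0350 and for the cell group 4.22% ± 0.113. Every ligation library was above every sham library, and sham and cells overlapped. None of these reads can be tied to the Notch genes, and the cause was not tested.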

How the results depend on the processing

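Of the 10 genes, 5 to 8 passed in ligation against sham in fits that each left out 1 library (8 with all), 2 to 5 in cells against ligation (5 with all) and 4 to 6 in cells against sham (4 with all). For the 47 further pathway genes these ranges were 10 to 15, 2 to 4 and 10 to 15, against 13, 4 and 14. Libraries summed by header stem left 3 of the 10 genes in cells against ligation. Library totals alone gave 20 pathway genes in ligation against sham, and 2 of the 10 genes in cells against sham. DESeq2 gave 7, 4 and 4 of the 10 genes. The number of all genes past 0.05 stayed within 1.5 times in every alternative run, though library totals alone moved the balance of higher and lower calls, as given above. Of 570 values (10 genes, 3 comparisons, 19 alternatives), 520 kept direction and side of the threshold, 37 lost the call, 2 gained it and 11 changed sign. Sign changes, in these and in 3 further pathway genes named below (Hes1, Lfng and Nrarp), were in differences that did not pass. With library totals alone Jag1 became 0.18 and Hes1 0.11 in ligation against sham, Jag2 became -0.024 in cells against ligation, and Notch3 and Jag1 became 0.072 and 0.056 in cells against sham. Dll1 in cells against sham became -0.0092 with summed libraries. With 1 library at a time left out, values ran from -0.090 to 0.040 for Jag1 in ligation against sham and from -0.056 to 0.068 for Jag2 in cells against ligation. In cells against sham they ran from -0.077 to 0.13 for Dll1, -0.027 to 0.15 for Lfng and -0.12 to 0.62 for Nrarp. The cause of these changes was not tested.

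A replicate block left 7, 5 and 4 of the 10 genes past the threshold and 13, 4 and 15 of the further pathway genes, and Notch3 was the gene whose call after ligation was lost. The pairing was not borne out: deviations of same-numbered libraries correlated between -0.122 and 0.144 over 9414 genes, and 4 of 9 libraries correlated best with their own number over the libraries of the other groups, with 0 of 9 doing so within each other group. Counting error is large for genes with few counts per library, such as Dll1 (38 to 86), Hey2 (33 to 59), Neurl1a (16 to 48) and Nrarp (13 to 50).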
